A study of Danio rerio with 5 samples.

Results

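Germ cell RNA-binding and Tudor genes were followed across 5 arrays of young adult zebrafish. The genes were taken by name from the platform's table of probe sets and genes: nanos3, dazl, dnd1, ddx4, piwil1, piwil2, tdrd7a, rnf17 and tdrd1. A probe set is a group of short probes that together measure a transcript. Of the 9 named genes, 8 had at least 1 probe set, out of 8793 genes with a single symbol, and they had 10 probe sets out of 15502. No probe set in that table carried the symbol tdrd1, and it was not analysed here.

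The fish were of the wildtype line AB and each condition was an exposure of 24 h without food. The 5 conditions were DMSO alone, benzene, toluene, formaldehyde, and a mixture of benzene, toluene and formaldehyde called the BTF mix; the compounds were prepared in DMSO, which the control fish also received. With 1 Affymetrix array per condition there is no spread between replicates to set a difference against, no test was run, and precision is limited by that number. The labels give the sex entry hemaphrodite for all 5 samples, which separates no males from females, and the sources used here give no tissue, dose or number of fish per array.

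These genes act in the cytoplasm of germ cells, where maternal messages are stored, kept silent or handed to the embryo. In zebrafish, nanos3, ddx4, dazl and dnd1 transcripts are part of the germ plasm of the egg, and their proteins protect the primordial germ cells and set which messages these cells translate. Piwi proteins carry small piRNAs that direct them to transposon transcripts, and Tudor domain proteins bind methylated arginines of Piwi proteins and hold them in the nuage, a granule beside the nucleus. In adult zebrafish, genes of this pathway are active in germ cells of both ovary and testis.

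Levels are the deposited log2 values, 1 per probe set and array. The BTF mix array stood far from the others: correlations across probe sets lay between 0.979 and 0.992 among the other 4 arrays and between 0.692 and 0.739 for the mix. Differences between the 3' and 5' control probe sets also moved, and not all in the same direction. The 3' minus 5' difference of the actc1b control probe sets lay between 5.63 and 6.02 on the 4 arrays and at 3.40 on the mix. That of the gapdhs control lay between 0.43 and 0.58 and at 0.64 on the mix. That of a spiked control, dap, lay between 1.58 and 1.70 with DMSO, benzene and toluene, at 2.78 with formaldehyde and at 2.90 with the mix. As dap is spiked in, its difference does not read the integrity of the fish RNA. The part of these shifts in the results below was not tested.

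The regulators of translation were led by nanos3 in the size of its difference. Nanos3 is a zinc finger repressor of translation that, in zebrafish, keeps primordial germ cells alive and later keeps the supply of oocytes. Its only probe set had levels of 10.75 with DMSO, 11.26 with benzene, 11.08 with toluene, 11.66 with formaldehyde and 5.57 with the BTF mix. The mix array was the low one by far, and DMSO was the lowest of the other 4. Mix minus DMSO was -5.19 on the log2 scale, a 36.4-fold difference.

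Dazl binds RNA through an RNA recognition motif and promotes translation of germ cell messages. Its only probe set had levels of 10.56 with DMSO, 10.53 with benzene, 10.53 with toluene, 10.81 with formaldehyde and 6.65 with the mix. The first 3 arrays were within 0.03 of each other, formaldehyde was slightly above them and the mix was far below, at a mix minus DMSO difference of -3.90.

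Dnd1 binds messages beside microRNA sites and shields them, and in zebrafish germ cells without it are lost. Its 2 probe sets gave different pictures of the mix. The first, DrAffx.2.5.S1_at, had levels of 11.36 with DMSO, 11.31 with benzene, 11.57 with toluene, 11.50 with formaldehyde and 10.31 with the mix. The second, DrAffx.2.5.S1_s_at, had levels of 10.44, 10.61, 10.94, 10.92 and 5.88 in the same order. Mix minus DMSO was -1.05 on the first and -4.55 on the second, although the table assigns both to the same source sequence. Among 864 genes with at least 2 probe sets past the level filter, the median gap between a gene's probe sets in this difference was 0.55, and 17 genes, or 1.97%, had a gap as large as the 3.50 of dnd1. An ending in _s_at marks probes shared with other transcripts. Which of the sets reads dnd1 on the mix array was not tested.

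**Figure D1:**
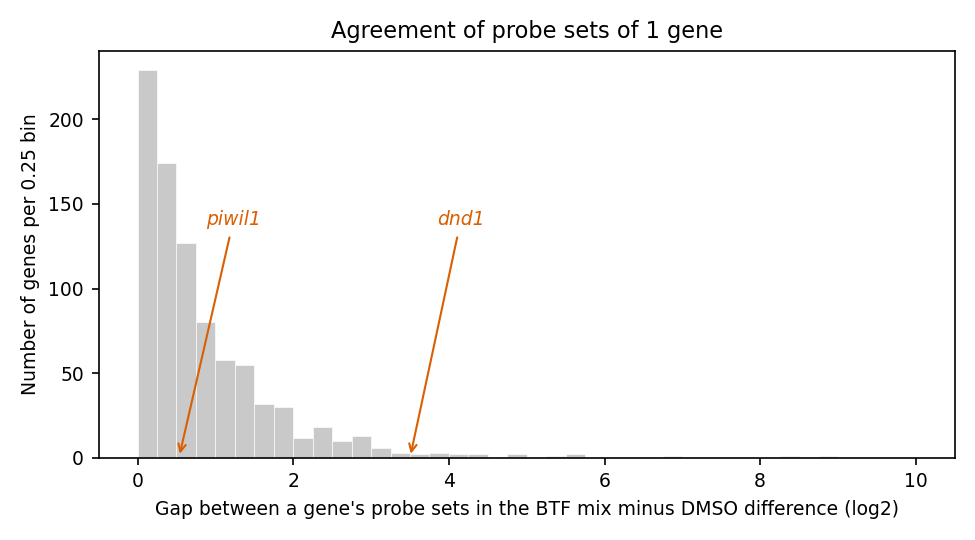
Number of genes (y axis, per bin of 0.25) by the gap between the probe sets of a gene in the BTF mix minus DMSO difference (x axis, log2), for the 864 genes with at least 2 probe sets past the level filter. The gap of piwil1, 0.53, lies near the median of 0.55, and that of dnd1, 3.50, is reached by 1.97% of these genes.

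Ddx4, known as Vasa, is a DEAD-box RNA helicase of the nuage and the classic marker of germ cells. Its only probe set had levels of 9.16 with DMSO, 9.16 with benzene, 9.44 with toluene, 8.96 with formaldehyde and 6.75 with the mix. Mix minus DMSO was -2.41, a 5.32-fold difference. Toluene was the highest array and formaldehyde the lowest of the other 4, and these differed by 0.48.

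The Piwi genes lay lower on the mix array as well. Piwil1, known in zebrafish as Ziwi, had levels of 9.39 with DMSO, 9.33 with benzene, 9.53 with toluene, 9.42 with formaldehyde and 7.81 with the mix on its first probe set, a mix minus DMSO difference of -1.58. On its second probe set it had levels of 7.25, 7.14, 7.34, 7.24 and 6.20 in the same order, a difference of -1.05. Both sets had toluene highest, benzene lowest of the first 4 arrays and the mix below all.

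Piwil2, known as Zili, is the partner of Ziwi in the cycle that amplifies piRNAs. Its only probe set had levels of 9.24 with DMSO, 9.015 with benzene, 8.90 with toluene, 9.57 with formaldehyde and 6.54 with the mix. Mix minus DMSO was -2.69, a 6.47-fold difference. Piwil2 differed from piwil1 in its order over the other arrays, with toluene lowest and formaldehyde highest.

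Over the first 4 arrays the Tudor genes tdrd7a and rnf17 spanned 0.23 and 0.32, beside a median of 0.34 for all genes. Tdrd7a, which in zebrafish shapes the germ granules, had levels of 9.89 with DMSO, 9.89 with benzene, 9.66 with toluene, 9.82 with formaldehyde and 6.44 with the mix. Rnf17, a protein with Tudor domains and a RING finger that in the mouse is needed for sperm formation, had levels of 9.85, 9.55, 9.66, 9.53 and 6.62 in the same order. DMSO was the highest array for both genes. Mix minus DMSO was -3.46 for tdrd7a and -3.23 for rnf17.

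**Figure D2:**
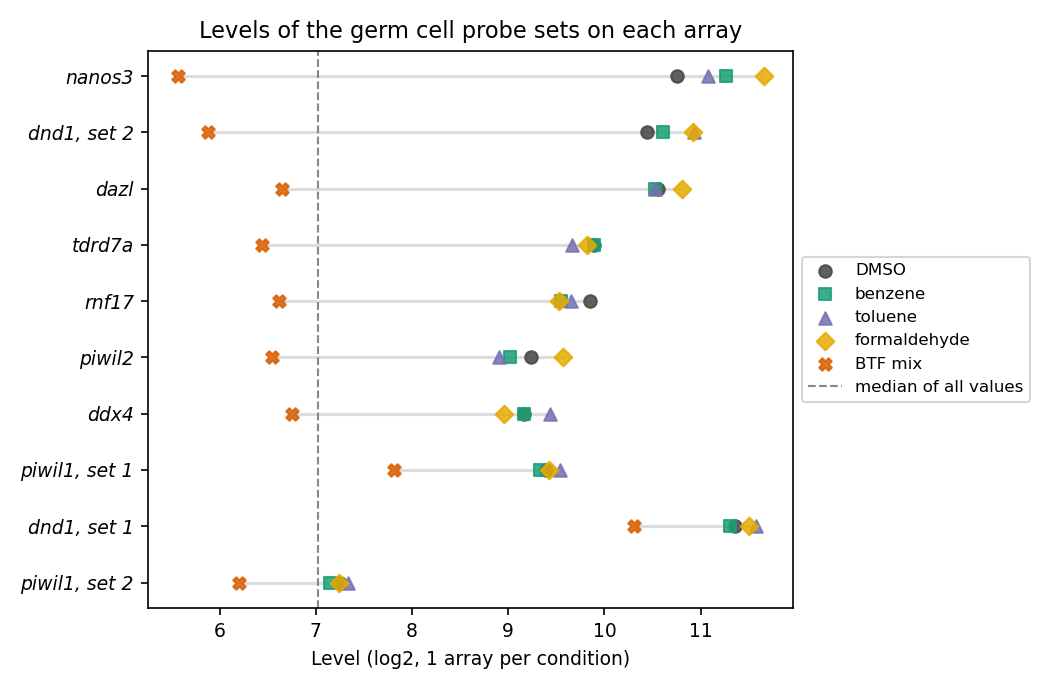
Level (x axis, log2) of each of the 10 probe sets (y axis) on the 5 arrays, with 1 array per condition. Set 1 and set 2 are the probe sets of a gene in the order named in the text, the dashed line is the median of all values (7.02), and in every row the mix array lies left of the other 4.

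With the BTF mix, all 8 measured genes were lower than with DMSO, by at least 2-fold as deposited. Differences ran from -5.19 for nanos3 to -1.05 for the first probe set of dnd1, with a median of -2.96. All 10 probe sets passed the level filter, a highest value of at least 7.02, and all 10 did so on arrays other than the mix. For comparison, 35.8% of the 6682 genes past the filter were at least 2-fold lower with the mix, and the median of all genes was -0.36. Over probe sets, 32.9% past the filter and 21.3% without a filter were at least 2-fold lower.

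The call for piwil1 and for the first dnd1 set depended on how the arrays were scaled. After cyclic loess normalization piwil1 lay at -0.79 (and at -1.21 on its second probe set) and dnd1 at -0.71, and after quantile normalization dnd1 lay at -0.94, so that 6 and 7 of the 8 genes were then at least 2-fold lower. The share of all genes at least 2-fold lower was 25.3% after loess. That scaling also moved the median of all probe sets past the filter from -0.22 to 0.17, and the share of lower among all 2-fold differences from 60.7% to 48.5%. Nanos3, dazl, tdrd7a, rnf17, piwil2 and ddx4 were at least 2-fold lower with the mix under every scaling tried.

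On the mix array, 6 of the 8 genes had levels below 7.02, and piwil1 (7.81) and the first dnd1 set (10.31) had levels above it. Those 6 genes passed the filter only through the other arrays. Detection calls were not used, so whether the 6 genes were measured above background on the mix array was not tested. Signal of RMA type flattens at the low end, and the differences of those genes may be understated. After cyclic loess normalization, on the other hand, the differences of these 6 genes were smaller in size than as deposited. They then ran from -4.47 for nanos3 to -1.67 for ddx4. The median of the 8 genes was -2.20 after that scaling and -2.96 as deposited. Which values lie nearer the true differences was not tested. In bulk RNA, fewer germ cells and less of each RNA per cell cannot be told apart.

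**Figure D3:**
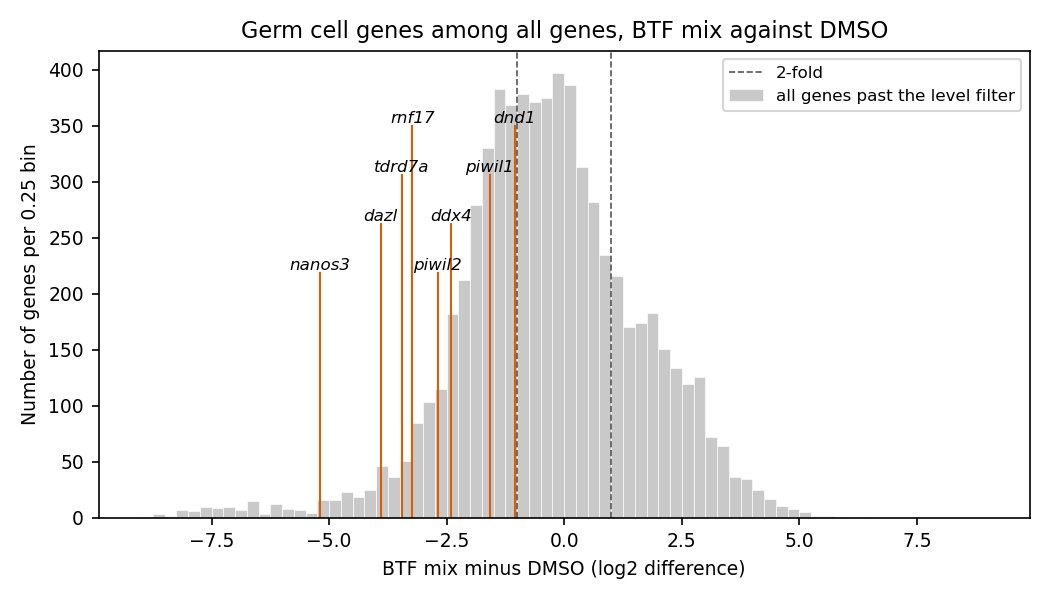
Number of genes (y axis, per bin of 0.25) by BTF mix minus DMSO difference (x axis, log2) for the 6682 genes past the level filter, with orange lines at the 8 germ cell genes. Dashed lines mark a 2-fold difference; the germ cell genes lie between -5.19 and -1.05, and the median of all genes is -0.36.

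With the single compounds, none of the 8 genes was 2-fold apart from DMSO. The share of all genes at least 2-fold higher or lower was 2.98% with benzene, 2.75% with toluene and 3.83% with formaldehyde, so none among 8 is near that background. The 3 comparisons share the DMSO array. The median difference of the 8 genes was -0.04 with benzene, 0.06 with toluene and 0.08 with formaldehyde, beside -0.01, 0.00 and -0.02 for all genes.

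Nanos3 had the largest difference of these genes with benzene and with formaldehyde. It was above DMSO by 0.51 with benzene, 0.33 with toluene and 0.90 with formaldehyde. At least as far from DMSO in either direction were 11.9% of all genes with benzene and 5.04% with formaldehyde. Its level with DMSO was the lowest of the 4 arrays: against the mean of the other arrays without the mix, the differences were 0.10 with benzene, -0.14 with toluene and 0.63 with formaldehyde. Over the 4 arrays nanos3 spanned 0.90, and 11.1% of all genes spanned as much.

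Piwil2 and ddx4 also spanned more than the median of all genes. The ddx4 span of 0.48 was reached by 32.4% of all genes. Piwil2 levels with benzene and toluene were -0.22 and -0.34 from DMSO and that with formaldehyde 0.33, a span of 0.67 that 18.9% of all genes reached. Piwil1, with a span of 0.21, was the steadiest of the 8, and 74.4% of all genes spanned as much. The median span was 0.30 for the 8 genes and 0.34 for all genes.

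Small differences had no direction common to the 3 compounds. With benzene 7 of the 8 genes were below DMSO, with toluene 4, and with formaldehyde 3. The share of all genes below DMSO was not counted, but the median of all genes lay close to 0, at -0.01, 0.00 and -0.02 in the same order. Signs near 0 depended on the scaling. With benzene after cyclic loess, dazl lay at 0.03, tdrd7a at 0.08, ddx4 at 0.09 and piwil1 at 0.02. There, nanos3 stayed above DMSO, and rnf17, piwil2 and the first dnd1 set stayed below. Rnf17 was below DMSO with all 3 compounds, at -0.30 with benzene, -0.19 with toluene and -0.32 with formaldehyde. DMSO was its highest array. Against the mean of the other arrays without the mix, it lay at -0.13, 0.02 and -0.15 in the same order. Tdrd7a was also below DMSO with all 3, at -0.005, -0.23 and -0.08. The second dnd1 set was above DMSO with all 3, by 0.17, 0.50 and 0.48 in the same order, while the first lay at -0.05, 0.22 and 0.14. Dazl differed from DMSO by -0.03 with benzene, -0.03 with toluene and 0.26 with formaldehyde.

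**Figure D4:**
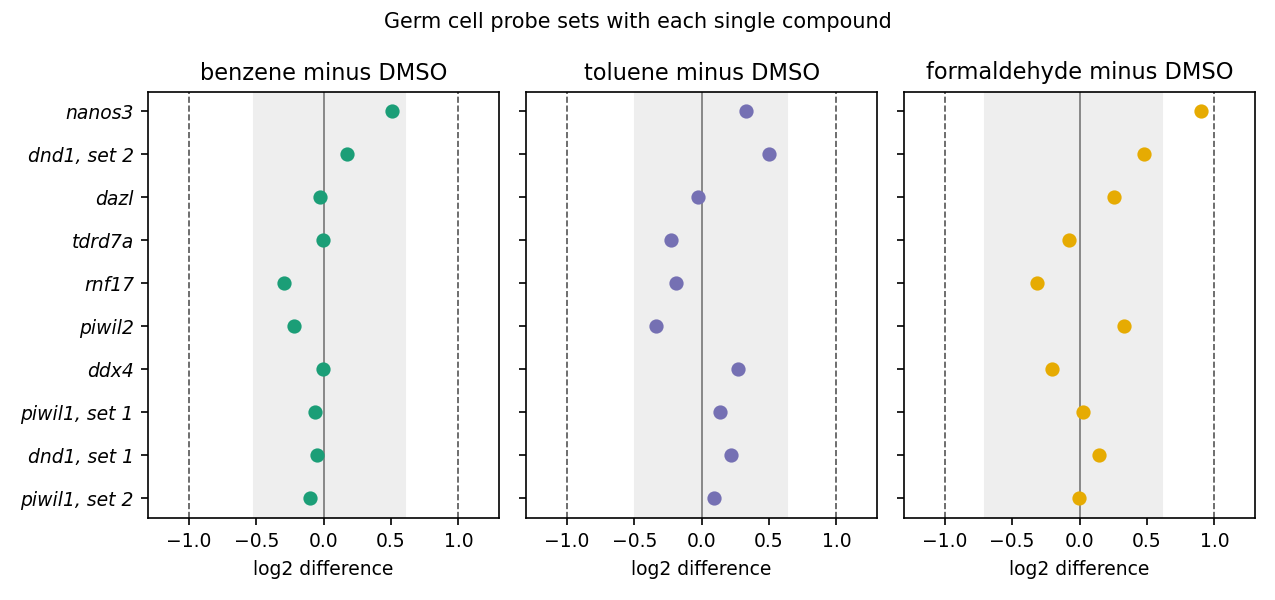
Difference from DMSO (x axis, log2) of the 10 probe sets (y axis) with each single compound, 1 array each. Grey spans hold the central 90% of all genes past the level filter, and dashed lines mark 2-fold; nanos3 with formaldehyde, at 0.90, is the only point outside a grey span.

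Toluene has the benzene ring with a methyl group added. The doses are not given, so their values stand side by side without a comparison of potency. Over the 10 probe sets, toluene minus benzene lay between -0.23 for tdrd7a and 0.32 for the second dnd1 set. Ddx4 lay at 0.27 and piwil1 at 0.21 and 0.19 on its probe sets. None was 2-fold apart, as were 1.6% of all genes.

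Other genes of the piRNA pathway and the nuage were lower on the mix array too. This list and those below were chosen with earlier results of these data known. Their shares therefore describe the lists and test nothing. Of 30 listed genes 14 were measured and 12 passed the level filter. Of these 12, 8 were at least 2-fold lower with the mix and 1 was at least 2-fold higher, beside 35.8% and 23.2% of all genes, and the median was -2.03. The filter favours genes that are high on the other arrays. Of the 14 measured genes, 11 reached the filter level with DMSO and 5 with the mix. Among the 8 lower genes, only prmt5 reached it on the mix array, at 7.85. The rest of the 8 passed only through the other arrays, so the filter fixed their direction. Over all 14 measured genes the median level was 8.86 with DMSO and 6.61 with the mix. The 8 became 7 after cyclic loess normalization.

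The largest of these differences belonged to gtsf1, a small zinc finger protein that in the mouse and the fly helps Piwi proteins silence transposons. Gtsf1 had levels of 12.86 with DMSO, 13.03 with benzene, 13.01 with toluene, 13.16 with formaldehyde and 6.72 with the mix, a mix minus DMSO difference of -6.14. The Tudor genes tdrd5 and tdrd6a lay at -3.90 and -3.78, and asz1, a mouse nuage protein with ankyrin repeats, at -3.81. Tdrd15 lay at -2.98 on 1 probe set and at -1.23 on the other, which did not reach the level filter.

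Partners with roles outside the germ line differed among themselves. The arginine methyltransferase gene prmt5 lay at -1.58 with the mix and its cofactor wdr77 at -0.88. Snd1, a Tudor protein of somatic cells as well, lay at 0.21, with -0.44 and 0.21 on its other probe sets. The chaperone hspb1, named because it was the single gene at least 2-fold higher, lay at 1.78. With the single compounds no gene of the list was 2-fold apart; among the 12 past the filter, the genes with the largest differences in size were tdrd15 at 0.60 and hsp90aa1.1 at 0.58, both with toluene, and the phospholipase pld6 at 0.38 with formaldehyde. Mov10b.1, below the filter and named outside the rule, lay at -0.76 with toluene.

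Germ plasm genes and other RNA regulators of germ cells lay over a wide range on the mix array. Of 57 listed genes 37 were measured and 34 passed the filter; 22 were at least 2-fold lower with the mix, beside 35.8% of all genes (median of the 34 genes -1.68). By the probe set that stood for each gene, only ybx1, a general RNA-binding protein, was at least 2-fold higher, at 1.64. Of all genes, 23.2% were at least 2-fold higher. The other ybx1 probe set, at a low level, lay at 0.30. Some genes had other probe sets that disagreed with the counted set. Khdrbs1a, counted as lower at -1.82, lay at -2.68, 0.27, 1.09, 1.98 and 2.12 on its other sets. Tob1b lay at 0.82 on the counted set and at 1.24 on the other. Ddx3xa lay at 0.36 on the counted set and at -2.48 and 0.09 on the others. Of the 37 measured genes, 33 reached the filter level with DMSO and 18 with the mix. Most of the 22 lower genes passed the filter only through the other arrays, so the filter fixed the direction of those genes. Over all 37 the median level was 9.92 with DMSO and 6.96 with the mix. After cyclic loess the counts were 19 lower and 3 higher. The lowest were maternal factors: zar1l at -7.99, zar1 at -7.60, the oocyte linker histone h1m at -7.36 and cpeb1b, which controls polyadenylation of stored messages, at -7.27. With the single compounds no gene of the list was 2-fold apart. The RNA helicase ddx3xb lay at -0.60 with benzene, -0.61 with toluene and -0.73 with formaldehyde. Its other probe set lay at -0.11, -0.19 and -0.72 in the same order. The gene lsm14ab lay at -0.58, -0.31 and -0.64 in the same order, and rbm46 at 0.70, -0.03 and 0.17. The other probe set of rbm46, below the filter, lay at 0.09, -0.01 and 0.14.

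Meiosis and recombination genes past the level filter had a median difference of a size like those of the Piwi genes. Most of those below the filter lay the other way. Of 45 listed genes 17 were measured and 11 passed the filter; 8 were at least 2-fold lower with the mix and 0 were higher by as much, beside 35.8% and 23.2% of all genes (median of the 11 genes -1.92). The filter favours genes that are high on the other arrays: 2 of the 17 reached 7.02 on the mix array. Of the 6 below the filter, 5 were highest there, beside 64.8% of all 2118 genes below the filter. Hormad1, sycp3, syce2, hsf5 and terb1 lay above DMSO with the mix, by 1.65, 0.57, 0.37, 0.64 and 0.21. Brca2 lay at -0.705. These 6 are named outside the rule for named genes. Over all 17 the median level was 7.54 with DMSO and 6.60 with the mix. The recombination factor psmc3ip lay at -3.56, but its other probe set, at a low level, lay at -0.04. The repair ligase rad18 lay at -2.38, the synapsis checkpoint gene trip13 at -2.34 and the strand exchange paralog rad51c at -2.02. The other probe set of rad18, below the filter, lay at -0.47. Sycp1, a part of the synaptonemal complex, had levels of 7.54 with DMSO, 6.92 with benzene, 7.29 with toluene, 7.29 with formaldehyde and 7.20 with the mix. Rad51c was the gene of this list furthest from DMSO with a single compound, at -0.91 with benzene.

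Markers of oocytes moved with the germ cell genes, and by more. Zar1, zar1l, h1m, buc and btg4 are also on the germ plasm list above, so these genes count in both lists. All 35 measured oocyte markers passed the filter; 33 were at least 2-fold lower with the mix (median of the list -6.60), and 33 were so after cyclic loess too, beside 35.8% and 25.3% of all genes. The summed level of the list, as log2 of the sum of linear values, lay between 18.07 and 18.18 on the 4 arrays and at 12.27 on the mix. Zp3c, an egg coat protein, lay at -7.65 and the zinc finger gene cth1 at -7.61. The 2 markers that were higher were esrp1, a splicing factor of epithelia, at 3.48, and cldne, a claudin, at 3.06. Cldne reached 7.02 on the mix array only, so the filter fixed its direction. In turn, 8 of the 35 reached 7.02 on the mix array, and the filter favours genes that are high on the other arrays. The same sum for the 8 germ cell genes lay between 13.23 and 13.49 on the 4 arrays and at 10.98 on the mix, where the first dnd1 set made up 62.5% of it. With the other dnd1 set in its place, a choice made after seeing the data, the sum lay between 13.03 and 13.36 on the 4 arrays and at 9.68 on the mix.

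With the single compounds no oocyte marker was 2-fold apart. The growth factor gene gdf3 lay at 0.38 with benzene, 0.32 with toluene and 0.60 with formaldehyde. The egg coat gene zp2l2 lay at -0.66, -0.53 and -0.60. Esrp1 lay at 0.46, 0.72 and -0.25.

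Markers of the testis and sperm were mostly low on all 5 arrays. Of 33 measured markers, 7 had levels of at least 7.02 with DMSO, 4 with benzene, 6 with toluene, 7 with formaldehyde and 7 with the mix. Of the 10 that passed the filter, hsd11b2 lay at 2.92 with the mix, gsdf at 1.35, rsph9 at 1.25 and ift46 at 1.09, and enkur at -1.03. Rsph9 reached 7.02 on the mix array only, so the filter fixed its direction. Enkur passed the filter only through other arrays, with a level of 6.36 on the mix. Hsd11b2 is also active in steroid metabolism of other tissues, and rsph9, ift46 and enkur belong to cilia in general. Of the gonad genes of this list, dmrt1 and amh, named outside the rule for named genes, were low on every array. Dmrt1 had a level of 4.80 with DMSO and 5.15 with the mix, and amh 3.99 and 4.85. Gsdf stood higher, at 7.04 with DMSO and 8.39 with the mix. Cyp11c1, also named outside the rule, had levels of 6.64 and 7.30 and reached 7.02 on the mix array only. Of the 23 markers below the filter, 14 were highest on the mix array, or 60.9%, beside 64.8% of all 2118 genes below the filter. With single compounds cimap1b lay at -1.38 with benzene, -1.97 with toluene and -1.46 with formaldehyde. Cimap1b reached 7.02 on the DMSO array only, so the filter fixed the direction of these differences. Enkur lay at -1.88 with benzene. Hsd11b2 lay at 1.105 with toluene and 0.81 with formaldehyde.

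Genes of ovarian follicle and steroid cells were mostly below the filter, which 5 of 19 measured genes passed. The steroid synthesis enzymes cyp17a1 and hsd3b2 lay at -4.96 and -3.01 with the mix, with -3.58 on the other probe set of cyp17a1. The cholesterol carrier star lay at 3.50 and the oestrogen receptor esr2b at 1.57. Esr2b reached 7.02 on the mix array only, so the filter fixed its direction. Cyp17a1 and hsd3b2 passed the filter only through the other arrays, with levels of 5.67 and 5.85 on the mix. Of the 5 genes, 2 were at least 2-fold higher and 2 lower with the mix, beside 23.2% and 35.8% of all genes. With formaldehyde hsd3b2 lay at 0.63; with benzene cyp17a1 lay at -0.54, and with toluene star lay at 0.81.

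Genes of muscle, liver, skin, pancreas, brain and lens went the other way on the mix array. Of 29 that passed the filter, 27 were higher by 2-fold or more and 0 were lower by as much, beside 23.2% and 35.8% of all genes. The median was 2.34. As this list too was chosen with earlier results known, its shares are no independent contrast between tissues. Over all 30 measured genes the median level was 11.03 with DMSO and 13.44 with the mix. The calcium-binding skin gene icn lay at 3.18, the haem carrier hpxa at 3.01, the lens crystallin cryaa at 3.004 and the fibrinogen chain fgb at 2.99. Cryaa, gfap, gnat2 and tnnt3a reached 7.02 on the mix array only, so the filter fixed the direction of their differences. With single compounds, 5 of the 29 were at least 2-fold higher with benzene, 5 were with toluene, and with formaldehyde 3 were higher and 6 lower. Of all 6682 genes, 133 were higher by as much with benzene and 145 with toluene. With formaldehyde 93 of all genes were higher and 163 lower. Icn, counted as higher with benzene at 1.14, lay at -0.14 there on its other probe set. The pancreatic genes cpa5, ela2 and prss1 differed most in size from DMSO in this list, at -4.14, -3.47 and -3.11 with formaldehyde, where the 8 germ cell genes lay between -0.32 and 0.90. With benzene the same genes lay at 1.77, 1.66 and 1.09. How far the shifts of these tissue lists account for the levels of the germ cell genes was not tested.

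**Figure D5:**
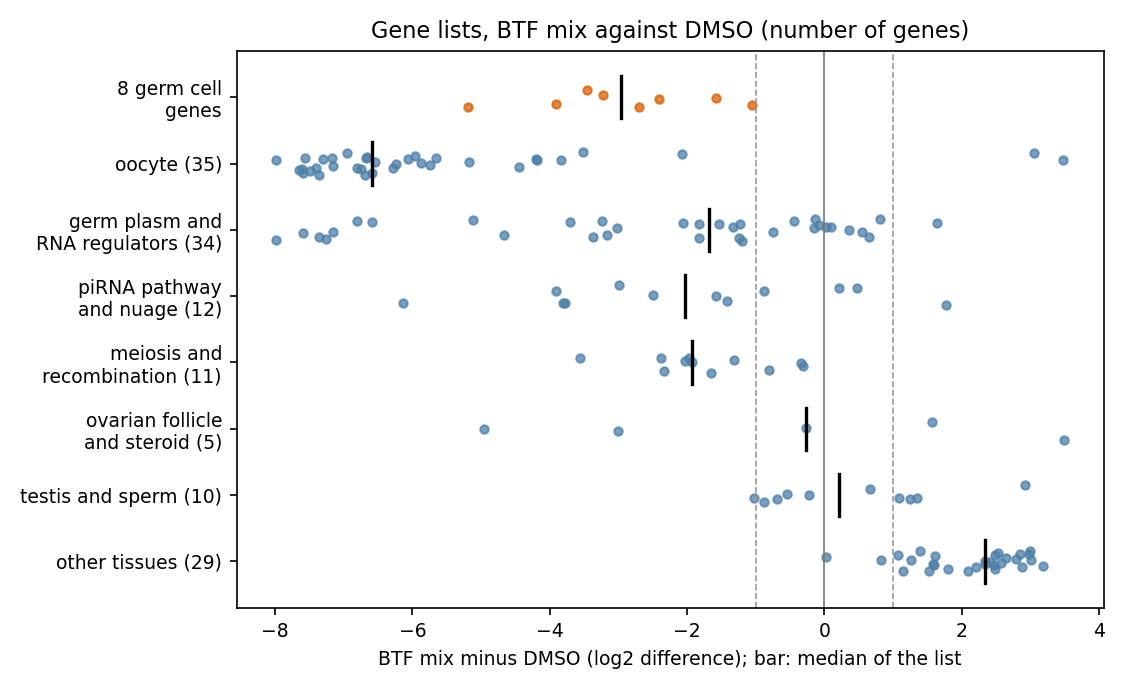
BTF mix minus DMSO difference (x axis, log2) of the 8 germ cell genes (orange) and of the genes of each list that passed the level filter (blue, number in brackets); black bars are medians and vertical jitter has no meaning. The germ cell genes, with a median of -2.96, lie between the oocyte list (-6.60) and the piRNA pathway list (-2.03), and other tissues lie at 2.34. Zar1, zar1l, h1m, buc and btg4 are drawn in both the oocyte and the germ plasm rows. The lists were chosen with earlier results of these data known.

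Genes with the most similar pattern were found by the root mean square distance between profiles over the 5 arrays, each centred on its own mean, among 6674 other genes. The profile is dominated by the mix array, and a small distance says no more than that the values run alike. Nearest to the median profile of the 8 genes were rbm33b, chst2a, incenp, si:ch211-225h24.2, elavl2, zwilch, tmpoa and ica1, in that order, at distances from 0.05 to 0.06. Elavl2, an RNA-binding protein, is on the list of germ cell RNA regulators and had levels of 9.99 with DMSO, 9.87 with benzene, 9.92 with toluene, 9.87 with formaldehyde and 6.96 with the mix. Incenp and zwilch act at the centromere and kinetochore in cell division.

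Single members had their own neighbours. Nanos3 lay nearest to rasef2, at a distance of 0.10, and to hwa, a maternal gene of the zebrafish body axis, at 0.18; hwa had levels of 10.11 with DMSO, 10.16 with benzene, 10.37 with toluene, 10.65 with formaldehyde and 4.61 with the mix. Dazl lay nearest to stil and vps9d1, tdrd7a to zgc:152968 and the ribonucleotide reductase gene rrm1, rnf17 to traip and zmynd19, and ddx4 to the phosphatase gene cdc14b and to mepceb. Piwil1 lay nearest to coro1ca and zgc:55943, piwil2 to snai3 and dr1, and the first dnd1 set to bcas2 and hexd. No gene came as near to nanos3 as stil did to dazl, at 0.03.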

How the data were processed

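Total RNA was biotin-labelled and hybridised to 1 Affymetrix array per condition, per the labels' protocols. The authors' deposited table holds log2 values; RMA, MAS5 and Affymetrix Expression Console 1.1 are named in the submitters' processing notes without their roles. The values, from 3.15 to 15.04 on all arrays, look like RMA output. RMA equalises the distributions of probe values between arrays and so can raise other transcripts where an abundant class is missing. Whether it did so here was not tested.

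Of 15617 rows, 115 controls were left out. Among 15502 probe sets, 10795 had a single gene symbol, 135 several and 4572 none. Of those with a single symbol, 10711 were matched through Entrez identifiers to RefSeq's table (GRCz12tu), whose symbol was used. Probe sets passed the level filter where their highest value reached 7.02, the median of all values. The probe set with the highest mean stood for a gene. Arrays were compared as differences of log2 values, and 2-fold is a difference of 1. The steps were tested on simulated data. The members and the 7 gene lists were chosen with earlier results of these data known.

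Named genes were every member, of each list the 4 with the largest mix difference and the 3 with the largest single-compound difference, and the 8 genes nearest to the members and 2 nearest to each. Other scalings (limma 3.58.1), filters, probe set rules and references were tried with Python 3.11.15 and R 4.3.3.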

Additional observations from a re-analysis of the deposited data

How the results depend on the processing

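No paired analysis was possible because each condition has 1 array, and for the same reason no replicate could be left out. The number of germ cell genes 2-fold apart was 8 with the BTF mix, 7 after quantile and 6 after cyclic loess normalization. It stayed 8 under median centring and averaged probe sets per gene. With the mean of the other arrays without the mix as reference it was 8 as well. Dropping the level filter could not change the number, because every member probe set passed it. A filter at the 75th percentile also gave 8, but a filter can only remove genes and changes no difference. With benzene, toluene and formaldehyde the number was 0 under all of these. Of 40 mix differences under alternatives, 37 kept direction and side of 2-fold; piwil1 at -0.79 and dnd1 at -0.71 after cyclic loess and dnd1 at -0.94 after quantile normalization kept direction only. The cause was not tested. Averaging its probe sets put dnd1 at -2.80. All 40 levels shifted by at most 0.28 under quantile normalization. All 8 genes nearest in pattern to the members were also the 8 nearest without the filter. With the mix, 59.4% of probe sets were 2-fold apart, 42.6% without a filter and 65.4% with the stricter one. Levels on the mix array near the low end of the scale limit how far differences there can be read.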

Other observations

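Below the level filter, where values have little order, 5 of 6 meiosis genes had their highest level on the BTF mix array, beside 64.8% of all 2118 genes below the filter. The largest step was that of hormad1, a protein of the meiotic chromosome axis, with levels of 4.73 with DMSO, 4.61 with benzene, 4.74 with toluene, 4.89 with formaldehyde and 6.39 with the mix. The synaptonemal gene sycp3 had levels of 5.32, 5.45, 5.40, 5.33 and 5.89 in the same order. These genes were singled out after their values were seen. Nanos1, a relative of nanos3 and also below the filter, had levels of 4.96, 4.98, 4.86, 5.02 and 5.95.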
